A study of Mus musculus with 20 samples.

Results

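The 10 genes described here encode proteins of elastic fibres and of the fine extracellular threads, called microfibrils, on which these fibres are built: Fbln1, Fbln2, Fbln5, Fbn1, Fn1, Emilin1, Mfap2, Mfap5, Ltbp4 and Eln. They were taken from a fixed list of symbols and found by their Ensembl gene ID among the 46983 IDs of each table, and all 10 were present. Of these, Fbln2, Fbln5 and Fbn1 are on the list because their values in these libraries were low in some hosts without CD4 T cells. The values of these 3 genes are therefore a description and carry no test, also between the competent hosts, which are the controls that the deficient hosts were read against. The other 7 were listed for what their proteins do.

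Fibrillin-1 (Fbn1) polymerises into microfibrils, which carry microfibril-associated proteins (Mfap2, Mfap5) and serve as the scaffold onto which tropoelastin (Eln) is deposited and cross-linked. Fibulins and EMILIN-1 sit at the interface of microfibril and elastin, and latent TGF-beta binding proteins such as Ltbp4 tether elastin precursors and, in most family members, the latent form of TGF-beta to the fibre. Fibronectin (Fn1) forms a separate fibrillar network that cells assemble through integrins and on which fibrillin assembly depends. In vessels these proteins are made by endothelial, mural and adventitial cells, and fibronectin is a known component of the provisional matrix of sprouting tumour vessels.

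The libraries are bulk RNA sequencing of CD31+ cells from tumours of E0771, a mouse mammary carcinoma line injected into a mammary fat pad of mice of the C57BL/6J strain. Tumours were taken at 500 mm3, and CD31 (Pecam1), a surface protein of endothelial cells, was used for bead enrichment and for sorting. The submitters class 10 libraries as competent for CD4 T cells: WT (n = 4), CD8KO (n = 3) and Tie2Cre (n = 3), which carries a Cre under the Tie2 promoter, active in the endothelial and the blood lineage. They class 10 as deficient: CD4KO (n = 3), TCRKO (n = 3) and Tie2Cre;H2Ab fl/fl (n = 4, libraries named Tie2Cre_H2Abf), in which the Cre meets a floxed class II gene. The knocked-out allele of the CD4KO, CD8KO and TCRKO hosts and the age of the animals are not given in the sources used here, and the Cre control carries the same Cre as the floxed host. Whether each library stands for its own animal is not stated, so a p-value covers the spread between libraries only, which may be technical.

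A library held between 1543847 and 11478902 counts. Of these, 12.8% to 81.0% were from protein-coding genes (median 24.2%). The highest share was in CD8KO_9752, which also had the largest scaling factor between libraries (3.69). The libraries WT_9771 and Tie2Cre_9501 were rich in satellite RNA, and 3 counts, used as the lower limit of a level, stood for 0.128 to 2.46 CPM (counts scaled to a library of fixed size), which covers counting error only. Endothelial markers summed to 2194 to 6072 CPM and were present in every library. H2-Ab1 stood at 0.712 to 6.37 CPM in Tie2Cre_H2Abf and at 25.3 to 96.2 CPM in Tie2Cre. Cd8a stood at 39.0 to 69.8 CPM in the 3 libraries labelled CD8KO and at no more than 2.94 CPM in any other, and Cd8b1 had 0 counts there, so this label could not be checked with the RNA. Cd4 was counted in CD4KO at 4.22 to 15.7 CPM and in WT at 0.379 to 15.6 CPM, and Trac and Trbc2 were near the lower limit in all hosts, so those labels could not be checked either.

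The promoters of the fibulins and of their partners are shown first, as a description of their sequence. RefSeq start sites on GRCm38.p6 were found for 7 of the 10 genes, and windows of 250 bases upstream of the start were read for Fbln1, Fbln2, Fbln5, Fbn1, Emilin1, Mfap2 and Ltbp4. Below are the window of Fbln5, one of the genes with low values, at chr12:101819120-101819369, and that of Ltbp4, whose levels differed less between hosts, at chr7:27337693-27337862. Both are on the minus strand and are written 5′ to 3′ along the gene. Capitals mark the GC box, GGGCGG or its reverse complement CCGCCC. Only the 170 bases of the Ltbp4 window that no annotated untranslated region covers are given.
Fbln5: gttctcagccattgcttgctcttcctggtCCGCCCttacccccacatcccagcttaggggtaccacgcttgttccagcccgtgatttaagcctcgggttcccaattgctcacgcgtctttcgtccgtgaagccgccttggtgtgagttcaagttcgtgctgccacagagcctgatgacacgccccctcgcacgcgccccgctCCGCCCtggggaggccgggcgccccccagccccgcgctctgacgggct
Ltbp4: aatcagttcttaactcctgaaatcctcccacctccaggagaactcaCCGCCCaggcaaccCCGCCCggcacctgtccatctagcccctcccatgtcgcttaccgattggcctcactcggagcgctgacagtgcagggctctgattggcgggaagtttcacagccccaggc
The Fbln5 stretch holds 2 GC boxes in 250 bases, with 65.2% G or C and 21 CpG pairs, more than in 83.7% of all 32851 windows of this length. The whole Ltbp4 window holds 3 GC boxes and 15 CpG pairs. The windows of Fbln2, Fbn1 and Emilin1 overlap an annotated untranslated region and lie within the annotated gene, so they are not printed. Their letters are thus not from before the annotated gene start. Those of Fbln2 and Fbn1 hold 1 GC box each. The box occurs in 32.7% of all windows, on either strand. None of the 7 windows held the TATA element TATAAA (12.4% of all windows) or the AP-1 letters TGANTCA (6.75%). The SMAD-binding letters CAGACA were in the windows of Fbln1, Emilin1 and Mfap2 and not in those of Fbln2, Fbln5, Fbn1 or Ltbp4 (17.1% of all windows). CACCC, the letters bound by Krüppel-like factors, stood in the windows of Fbln2, Fbn1, Fbln1 and Mfap2 (52% of all windows). The E-box CANNTG stood in the windows of Fbln1, Fbln2, Fbln5, Emilin1, Mfap2 and Ltbp4 and not in that of Fbn1 (66.2% of all windows). A match describes these letters only.

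Of the 10 genes, 7 passed the filter on low counts. Per kilobase of effective length, the mean level over the 20 libraries was highest for Fn1 at 98.3 ± 86.8 CPM per kb (SD, n = 20), followed by Fbln2 at 58.5 ± 42.9 and Ltbp4 at 58.3 ± 33.7 CPM per kb. Fbln5 followed at 9.34 ± 6.95, Eln at 7.27 ± 7.42, Emilin1 at 3.07 ± 2.31 and Fbn1 at 2.71 ± 2.25 CPM per kb. Thus a fibulin, a TGF-beta binding protein and fibronectin stood above fibrillin-1 itself in these cells by this measure. Fbln2 and Ltbp4 did not differ beyond their spread, and in the deposited TPM values they changed places. The authors' effective length of Fbn1 ran from 2.21 to 9.66 kb between libraries, so its level per length is less certain than that of Fbln5 (5.44 to 5.64 kb).

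**Figure D1:**
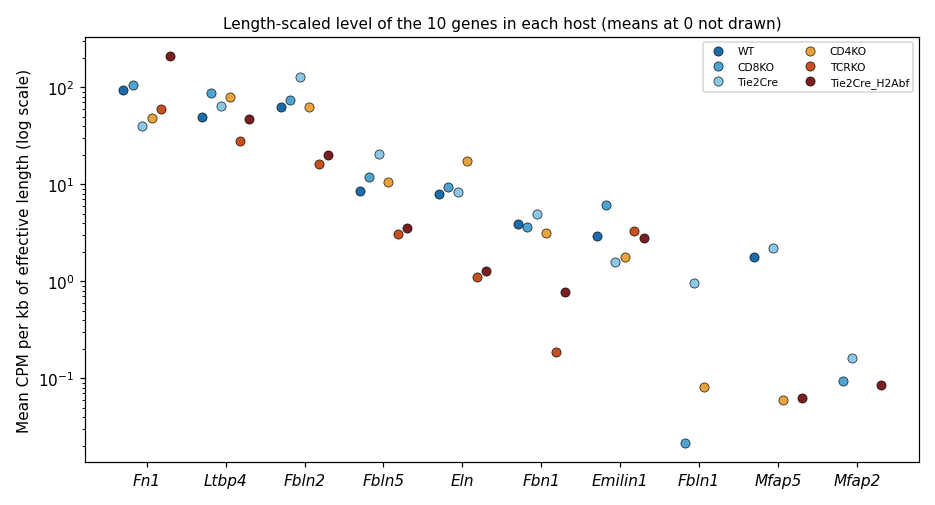
Mean CPM per kb of effective length (vertical axis, log scale) of each of the 10 genes, with 1 point for the mean of each of the 6 hosts (means at 0 are not drawn). Fn1, Ltbp4 and Fbln2 are the 3 highest, and Fbln1, Mfap5 and Mfap2 lie lowest or are missing in several hosts.

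The other 3 genes did not pass the filter. Fbln1, fibulin-1, had 45 counts in all 20 libraries, of which 41 came from Tie2Cre_9502 (4.997 CPM) and 2 from CD4KO_9768. The fibroblast marker sum of Tie2Cre_9502 was 10.7 CPM, against 47.2 CPM in Tie2Cre_9501, which had 0 Fbln1 counts. Mfap2 (MAGP-1), a protein bound along the fibrillin thread, had 4 counts in 3 libraries. Mfap5 (MAGP-2), its close relative, had 27 counts in 6 libraries: 11 in Tie2Cre_9501, 5 in WT_9771, 5 in WT_9772, 4 in Tie2Cre_9504 and 1 each in CD4KO_9769 and Tie2Cre_H2Abf_9576. At these counts a difference between hosts was not detectable.

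Fbln2, fibulin-2, a large fibulin of vessel basement membranes and elastic fibres, lies on chromosome 6, 91212455 to 91272540 (GRCm38, plus strand; ENSMUSG00000064080). It stood at 263, 320.3, 136 and 256 CPM in WT_9748, WT_9749, WT_9771 and WT_9772. The 3 libraries labelled CD8KO gave 400.5, 297 and 180 CPM in the order of their numbers, and Tie2Cre gave 546, 629.6 and 317 CPM. All 10 competent libraries thus held at least 136 CPM.
CD4KO_9768, CD4KO_9769 and CD4KO_9770 had 127, 212 and 402 CPM of Fbln2, inside the range of the competent hosts apart from the first, which lay just under it. TCRKO had 76.9, 55.0 and 59.3 CPM, and Tie2Cre_H2Abf had 67.5, 52.7, 91.3 and 103 CPM. By CPM the 7 libraries of TCRKO and Tie2Cre_H2Abf were all below each competent library and below each CD4KO library. In the order of host means (Tie2Cre 497, CD8KO 292, CD4KO 247, WT 244, Tie2Cre_H2Abf 78.7 and TCRKO 63.7 CPM) the only neighbours with separate CPM ranges were WT and Tie2Cre_H2Abf. In the deposited TPM values WT_9771, at 20.1, lay below TCRKO_9765 (26.0) and Tie2Cre_H2Abf_9583 (30.7), so WT overlapped both hosts.

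The low level of Fbln2 was thus seen in 2 of the 3 hosts classed as deficient, and the pooled value averages over both kinds. Over all deficient against all competent libraries the fitted log2 change was -1.42 ± 0.35 (SE). By host it was -1.94 ± 0.43 in TCRKO and 0.02 ± 0.40 in CD4KO, both against WT, and -2.66 ± 0.41 in Tie2Cre_H2Abf against Tie2Cre. TCRKO and CD4KO are read against the same WT libraries. These values are what the gene was chosen for, and no test is attached.

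Fbln5, fibulin-5, a small fibulin that binds tropoelastin and cell-surface integrins and is needed for elastic fibre assembly, lies on chromosome 12, 101746565 to 101819055 (minus strand; ENSMUSG00000021186). Its WT values were 14.4, 28.9, 59.9 and 85.6 CPM, a wide spread that reached down to the level of the deficient hosts. The lower values were those of WT_9748 and WT_9749, the higher those of WT_9771 and WT_9772. The libraries labelled CD8KO gave 78.7, 67.7 and 48.9 CPM, and Tie2Cre gave 156, 109 and 76.5 CPM. CD4KO gave 37.3, 80.5 and 56.2 CPM.
TCRKO had 21.2, 16.3 and 13.9 CPM of Fbln5, and Tie2Cre_H2Abf had 15.8, 15.8, 30.3 and 16.1 CPM. Against Tie2Cre the Tie2Cre_H2Abf libraries did not overlap (-2.55 ± 0.50). Against WT the TCRKO libraries overlapped, because WT_9748 was as low as they were (-1.46 ± 0.51). CD4KO against WT came to 0.30 ± 0.49, and the pooled value for CD4 status to -1.25 ± 0.37. No pair of neighbours in the order of host means had separate ranges.

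Fbn1, fibrillin-1, the main structural protein of microfibrils and the gene mutated in Marfan syndrome, lies on chromosome 2, 125300594 to 125507993 (minus strand; ENSMUSG00000027204). WT had 45.0, 7.43, 33.6 and 28.2 CPM. The libraries labelled CD8KO had 30.0, 24.4 and 26.1 CPM, Tie2Cre had 36.7, 51.7 and 20.2 CPM, and CD4KO had 5.90, 17.5 and 46.5 CPM. TCRKO had 0.739, 2.26 and 1.14 CPM, from 6, 19 and 5 counts. Tie2Cre_H2Abf had 7.26, 2.54, 5.52 and 7.82 CPM, from 41, 15, 31 and 54 counts.
By CPM every TCRKO library lay below every library of the other 5 hosts. The CPM ranges of Tie2Cre_H2Abf and TCRKO, neighbours in the order of means, were separate only by a narrow gap. TCRKO_9766 had 2.26 CPM from 19 counts, and Tie2Cre_H2Abf_9582 had 2.54 CPM from 15 counts. In the deposited TPM values these hosts overlapped, with 0.59 in TCRKO_9766 and 0.4 in Tie2Cre_H2Abf_9582. Relative to Pecam1 counts TCRKO_9766 also lay above Tie2Cre_H2Abf_9582. Apart from WT_9749, every competent library had at least 20.2 CPM. The fitted log2 change was -4.34 ± 0.78 in TCRKO against WT, -2.64 ± 0.65 in Tie2Cre_H2Abf against Tie2Cre and -0.28 ± 0.64 in CD4KO against WT, and -1.62 ± 0.53 for CD4 status. A predicted gene inside the Fbn1 locus, Gm9913, had 6 counts in all.

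**Figure D2:**
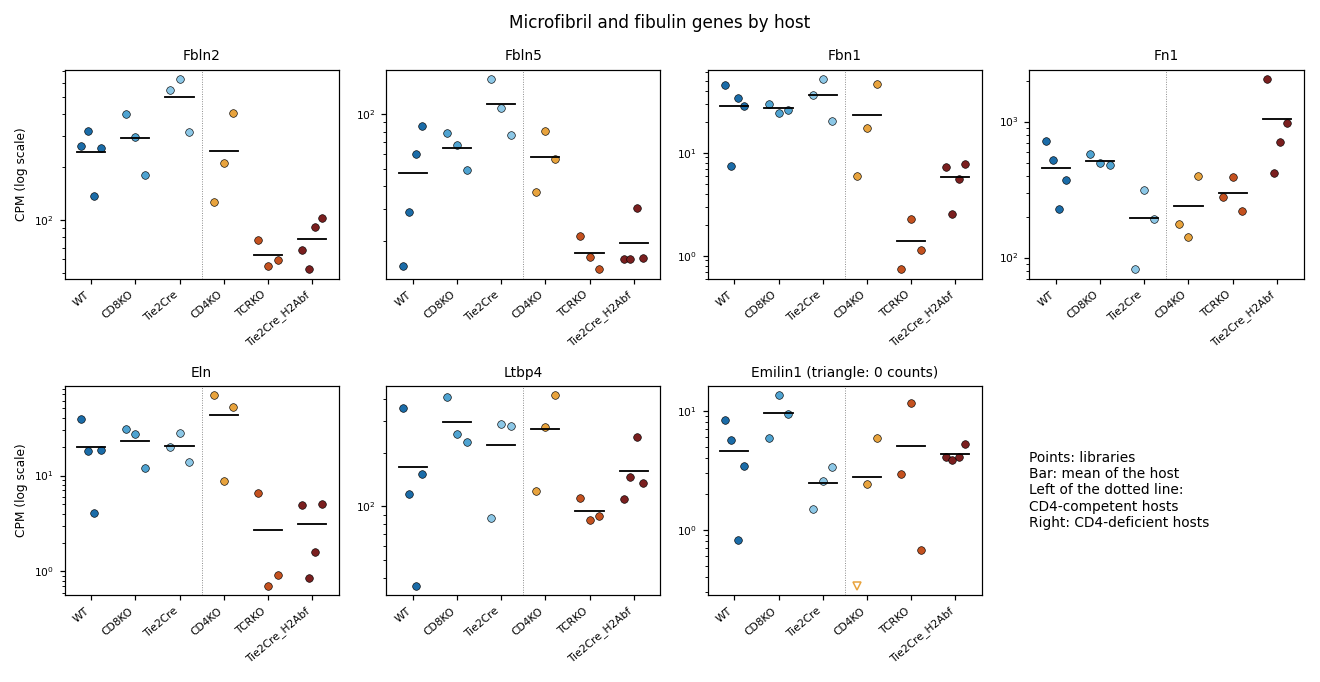
CPM of the 7 genes that passed the filter (vertical axes, log scale) in each library (points), by host (horizontal axis), with the host mean as a bar and a triangle for a library with 0 counts. TCRKO and Tie2Cre_H2Abf lie low for Fbln2, Fbln5, Fbn1 and Eln, while Tie2Cre_H2Abf has the highest mean CPM of Fn1.

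The 3 chosen genes also varied between the competent hosts. Against WT, Tie2Cre gave log2 changes of 1.03 ± 0.40 for Fbln2, 1.27 ± 0.49 for Fbln5 and 0.34 ± 0.63 for Fbn1. For the libraries labelled CD8KO the changes against WT were 0.26 ± 0.40, 0.47 ± 0.49 and -0.09 ± 0.64 in the same order. In both comparisons 0% of the 14875 genes tested passed the threshold of 0.05 by edgeR. At an unadjusted p under 0.05 there were 1568 genes for the CD8KO label and 1019 for Tie2Cre, and DESeq2 called 73 and 78 genes. The WT and Tie2Cre libraries also differ in the series of their library numbers (as in WT_9748 and Tie2Cre_9501), so host and number series cannot be told apart. Every other host also has library numbers of its own (as in TCRKO_9765 to TCRKO_9767 and Tie2Cre_H2Abf_9576 to Tie2Cre_H2Abf_9589). Host and library number thus cannot be told apart in the other comparisons either. The control matters for the size of the difference of Tie2Cre_H2Abf: its Fbln2 mean of 78.7 CPM stands beside 497 CPM in Tie2Cre and 244 CPM in WT, and its Fbln5 mean of 19.5 CPM beside 114 and 47.2 CPM.

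Eln, tropoelastin, the soluble precursor of elastin, lies on chromosome 5, 134702593 to 134747323 (minus strand; ENSMUSG00000029675) and was not chosen by its values. WT had 38.6, 18.1, 4.10 and 18.6 CPM, the libraries labelled CD8KO had 30.6, 26.9 and 11.8 CPM, and Tie2Cre had 19.7, 27.4 and 14.0 CPM. CD4KO had 68.3, 8.70 and 51.4 CPM, which includes the 2 highest values of all libraries. TCRKO had 6.53, 0.713 and 0.909 CPM, and Tie2Cre_H2Abf had 4.96, 0.847, 1.60 and 5.07 CPM.
TCRKO and Tie2Cre_H2Abf had the lowest means of Eln, 2.72 ± 3.30 CPM (SD, n = 3) and 3.12 ± 2.21 CPM (SD, n = 4), as they had of the 3 chosen genes. TCRKO overlapped WT only through WT_9771, a satellite-rich library with 5 Eln counts, and Tie2Cre_H2Abf lay wholly below Tie2Cre. The log2 change was -2.86 ± 0.87 in TCRKO against WT (edgeR, unadjusted p = 0.0031, adjusted p = 0.403) and -2.70 ± 0.81 in Tie2Cre_H2Abf against Tie2Cre (unadjusted p = 0.0026, adjusted p = 0.576). Neither passed, and without TCRKO_9765, the highest of its host, the first was -4.62. With DESeq2 the TCRKO value did (-2.92, adjusted p = 0.0323). CD4KO against WT was 1.09 ± 0.77 (adjusted p = 0.711). An antisense gene, Gm30003, overlaps Eln, and its 22 counts in all libraries cannot be told from Eln by strand.

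Ltbp4, a latent TGF-beta binding protein needed for the assembly of elastin with fibulin-5, lies on chromosome 7, 27305136 to 27337692 (minus strand; ENSMUSG00000040488). WT ranged from 36.1 to 357 CPM, the libraries labelled CD8KO from 228 to 410.3 CPM, Tie2Cre from 86.5 to 289 CPM and CD4KO from 121 to 417 CPM. TCRKO gave 112, 83.5 and 88.9 CPM and Tie2Cre_H2Abf 109, 146, 244 and 135 CPM. These ranges overlapped with those of their controls. The log2 changes were -0.81 ± 0.55 in TCRKO against WT (adjusted p = 0.670), -0.47 ± 0.53 in Tie2Cre_H2Abf against Tie2Cre (adjusted p = 0.831) and 0.71 ± 0.53 in CD4KO against WT (adjusted p = 0.732). Without single libraries they ran from -1.14 (WT_9771 left out) to -0.11 (WT_9748 left out) in TCRKO, from -0.85 to -0.21 in Tie2Cre_H2Abf and from 0.27 (CD4KO_9770 left out) to 1.42 (WT_9748 left out) in CD4KO.

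Emilin1, an elastin-interface glycoprotein that also restrains TGF-beta processing, lies on chromosome 5, 30913402 to 30921277 (plus strand; ENSMUSG00000029163) and was the least abundant of the tested genes by counts. Host means ran from 2.49 ± 0.946 CPM in Tie2Cre (SD, n = 3) to 9.59 ± 3.77 CPM in the libraries labelled CD8KO (SD, n = 3), and CD4KO_9768 had 0 counts. Tie2Cre_H2Abf had 4.07, 3.895, 4.09 and 5.21 CPM, all above the 1.51, 2.56 and 3.40 CPM of Tie2Cre. In the deposited TPM values these hosts overlapped, with a lower mean in Tie2Cre_H2Abf (1.69) than in Tie2Cre (2.79). The log2 change was 0.77 ± 1.03 and did not pass (edgeR adjusted p = 0.862). In TCRKO against WT it was 0.11 ± 1.01 (adjusted p = 0.991), over TCRKO libraries at 2.96, 11.6 and 0.682 CPM, and it was -1.34 without the second of these.

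Fn1, fibronectin, lies on chromosome 1, 71585520 to 71653200 (minus strand; ENSMUSG00000026193) and had another pattern than the fibulins. WT had 714, 522, 226 and 375 CPM, the libraries labelled CD8KO had 575, 498 and 478 CPM, and Tie2Cre had 82.0, 312 and 193 CPM. CD4KO had 178, 141 and 399.9 CPM, and TCRKO had 277, 394 and 219 CPM. Tie2Cre_H2Abf had 2051, 418, 709 and 975 CPM.
The Tie2Cre_H2Abf libraries lay above all 3 Tie2Cre libraries and overlapped WT. In WT, 2 of 4 libraries exceeded the lowest Tie2Cre_H2Abf library. TCRKO, the other host with low fibulins, lay within the WT range except for TCRKO_9767, just under it. In the deposited TPM values the libraries labelled CD8KO had the highest mean, 220 ± 166 (SD, n = 3), against 190 ± 94.9 in Tie2Cre_H2Abf (SD, n = 4).
The log2 change of Fn1 in Tie2Cre_H2Abf against Tie2Cre was 2.41 ± 0.53 (edgeR, unadjusted p = 0.00012, adjusted p = 0.217), higher in 4 of 4 libraries, and did not pass. It passed with DESeq2 (2.29, adjusted p = 0.000347), with no filter on low counts (2.43, adjusted p = 0.00581) and with a filter of 5 CPM in 10 libraries (2.27, adjusted p = 0.0322). Without single libraries it ran from 1.84 to 2.93 and did not pass. In TCRKO against WT it was -0.63 ± 0.49 (adjusted p = 0.728), in CD4KO against WT -0.94 ± 0.50 (adjusted p = 0.596) and in Tie2Cre against WT -1.23 ± 0.50 (adjusted p = 0.693).

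Whether the Tie2Cre_H2Abf effect differed from the TCRKO effect was tested as a difference of the 2 contrasts, a test added after the data were seen. For Fn1 it was 3.04 ± 0.72 (unadjusted p = 0.00028, adjusted p = 0.218), and it passed with DESeq2 (2.98, adjusted p = 0.00196) and with no filter (2.91, adjusted p = 0.0235). For Eln it was 0.16 ± 1.12 (adjusted p = 0.999), for Ltbp4 0.34 ± 0.76 (adjusted p = 0.967) and for Emilin1 0.66 ± 1.44 (adjusted p = 0.966). By edgeR 0% of all genes passed here, against 1011 at an unadjusted p under 0.05, 72 by DESeq2 and 0 by limma-voom. The Tie2Cre_H2Abf and TCRKO effects have different controls.

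The ratio of Fn1 to Fbln2 within a library needs no scaling between libraries. It was 2.71, 1.63, 1.66 and 1.46 Fn1 counts per Fbln2 count in WT, and 1.44, 1.68 and 2.66 in the libraries labelled CD8KO. Tie2Cre gave 0.150, 0.496 and 0.609, and CD4KO gave 1.40, 0.666 and 0.994. TCRKO gave 3.60, 7.16 and 3.69, and Tie2Cre_H2Abf gave 30.4, 7.93, 7.77 and 9.45. The 7 libraries of the last 2 hosts all exceeded the 13 others, of which the highest was 2.71. One term of the ratio was chosen by its values, so this is a description.

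**Figure D3:**
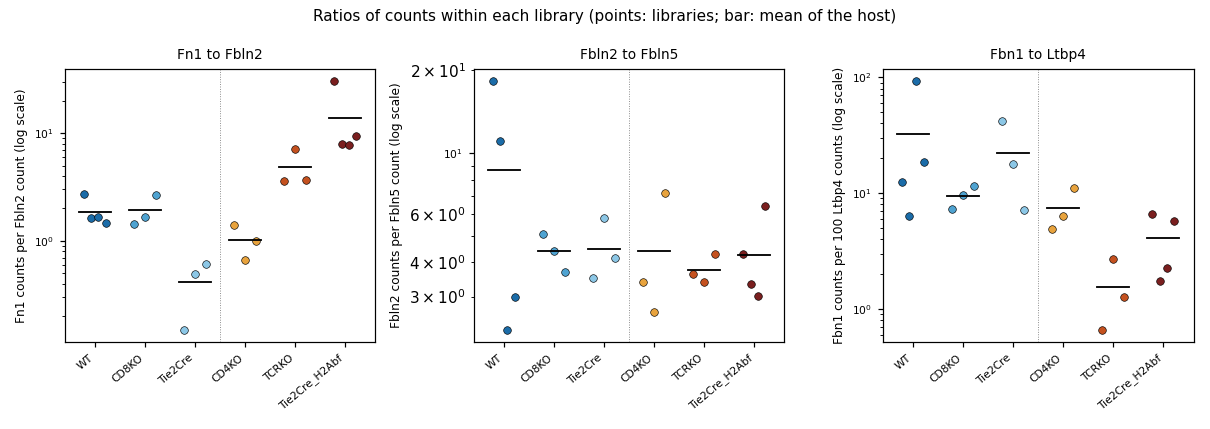
Ratios of counts within each library (points; vertical axes, log scale) by host, with the host mean as a bar: Fn1 to Fbln2, Fbln2 to Fbln5, and Fbn1 per 100 counts of Ltbp4. The first ratio is highest in TCRKO and Tie2Cre_H2Abf, the second spans a similar range in all hosts but WT, and the third has its lowest mean in TCRKO, whose libraries overlap those of Tie2Cre_H2Abf.

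Among the low genes the balance between the 2 fibulins was similar. Fbln2 to Fbln5 stood at 3.76 ± 0.464 in TCRKO (SD, n = 3), 4.27 ± 1.53 in Tie2Cre_H2Abf (SD, n = 4), 4.48 ± 1.18 in Tie2Cre, 4.38 ± 0.706 in the libraries labelled CD8KO and 4.39 ± 2.42 in CD4KO (SD, n = 3 each). In WT it ran from 2.27 to 18.3, the high values coming from WT_9748 (18.3) and WT_9749 (11.1), where Fbln5 was low. Fbn1 against Ltbp4, fibrillin against a protein bound to it, was not so even. There were 0.662, 2.70 and 1.28 Fbn1 counts per 100 Ltbp4 counts in TCRKO and 6.63, 1.74, 2.26 and 5.78 in Tie2Cre_H2Abf, which overlapped. WT gave 6.38 to 93.2, where WT_9771 with 41 Fbn1 and 44 Ltbp4 counts was the highest. CD4KO gave 4.86, 6.32 and 11.2, the libraries labelled CD8KO 7.31, 9.68 and 11.5, and Tie2Cre 42.4, 17.9 and 7.13.
Eln to Ltbp4 gave 10.8 to 15.5 Eln counts per 100 Ltbp4 counts in all 4 WT libraries, a narrow range that also held in WT_9771. TCRKO gave 5.84, 0.853 and 1.02, and Tie2Cre_H2Abf gave 4.53, 0.581, 0.656 and 3.74. In Tie2Cre this ratio was 22.7, 9.48 and 4.95, in CD4KO 56.4, 3.14 and 12.3, and in the libraries labelled CD8KO 7.45, 10.7 and 5.19, the last of them below the highest TCRKO value.

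Across the 4 tested genes that were not chosen by their values, 0 of 4 passed in any of the 7 comparisons planned, or in the added difference, by edgeR. At an unadjusted p under 0.05 were Eln in TCRKO against WT, Fn1 and Eln in Tie2Cre_H2Abf against Tie2Cre and in any difference, and Fn1 in Tie2Cre against WT and in the added difference. Over all genes 1286, 1271, 1389, 1019 and 1011 of 14875 were at such a p in these 5 comparisons, in that order. DESeq2 called Eln in TCRKO against WT (adjusted p = 0.0323), Fn1 in Tie2Cre_H2Abf against Tie2Cre (adjusted p = 0.000347) and in the added difference, and both in any difference, and limma-voom called Eln for CD4 status (-2.66, adjusted p = 0.0294). The edgeR value for that was -0.50, and it ran from -1.20 without CD4KO_9768 to -0.36 without TCRKO_9766. The background was 0% of 14875 genes for CD4 status (1081 at an unadjusted p under 0.05, 11 by DESeq2, 8 by limma-voom), 0% for CD4KO against WT (1277, 91 and 0), 0.0269% for TCRKO against WT, 0.0202% for Tie2Cre_H2Abf against Tie2Cre, and 0.0605% for any difference among the 6 hosts. In that last test, over all hosts at once, the adjusted p was 0.161 for Fn1, 0.175 for Eln, 0.583 for Ltbp4 and 0.912 for Emilin1. For CD4 status the log2 changes were 0.53 ± 0.40 for Fn1, -0.50 ± 0.64 for Eln, -0.43 ± 0.59 for Emilin1 and -0.35 ± 0.35 for Ltbp4 (adjusted p = 0.855, 0.922, 0.930 and 0.886). The libraries labelled CD8KO gave 0.17 ± 0.49 for Fn1, 0.20 ± 0.77 for Eln, 1.02 ± 1.00 for Emilin1 and 0.84 ± 0.53 for Ltbp4 against WT (adjusted p = 0.951, 0.962, 0.784 and 0.593). The median log2 change of all genes was -0.11 for CD4 status, -0.20 in TCRKO, -0.24 in Tie2Cre_H2Abf, -0.08 in CD4KO, 0.02 in Tie2Cre and -0.18 in the libraries labelled CD8KO. The small negative values above are to be read against these medians.

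Counts of genes whose 2 groups do not overlap by CPM give another view. In Tie2Cre_H2Abf against Tie2Cre, Eln was lower without overlap, as were 3.76% of all tested genes. Fn1 and Emilin1 were higher without overlap, as were 5.28%, but Emilin1 overlapped in the deposited TPM values. Fbln2, Fbln5 and Fbn1 were also lower without overlap, but they were chosen for low values, so the share is no measure for them. In TCRKO against WT, Fbln2 and Fbn1, both chosen, were lower without overlap, and 0 of the genes not chosen (2.1% of all genes). There 0 of the 7 were higher (5.57%). In CD4KO against WT the shares of all genes were 1.19% lower and 2.73% higher, in Tie2Cre against WT 1.34% and 2.86%, and for the libraries labelled CD8KO 1.47% and 3.69%, with 0 of the 7 genes in each of these.

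**Figure D4:**
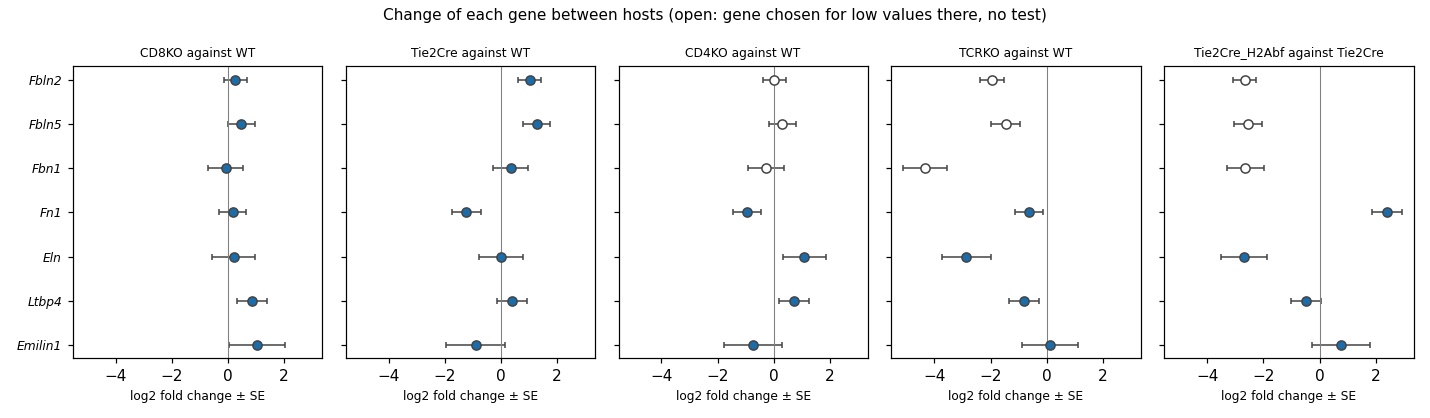
Fitted log2 fold change (horizontal axis) with its standard error (bar) of the 7 tested genes (vertical axis) in 5 comparisons, open points where the gene was chosen for low values in such hosts. In CD8KO against WT and Tie2Cre against WT the chosen genes are drawn filled, but are a description there too. In Tie2Cre_H2Abf against Tie2Cre, Fbln2, Fbln5, Fbn1 and Eln lie between -2.70 and -2.55 and Fn1 at 2.41. In CD4KO against WT the points lie between -0.94 and 1.09.

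The sort was checked for other cells that make these proteins. Of the 10 fibroblast markers, Lum had 0 counts in 16 libraries, Dpt in 14, Col1a2 in 12, Pdgfra in 11, Col1a1, Dcn and Fap in 10 each, Col3a1 in 7, Postn in 6 and Thy1 in 1. Thy1 had the highest median of them, 3.59 CPM. Their sum was 6.65 to 21.1 CPM in TCRKO, 0 to 45.1 CPM in WT, 6.37 to 11.9 CPM in Tie2Cre_H2Abf and 10.7 to 47.2 CPM in Tie2Cre. The mural markers summed to 31.1 to 40.9 CPM in TCRKO and 32.4 to 75.6 CPM in WT, and to 35.6 to 103 CPM in Tie2Cre_H2Abf against 54.8 to 93.0 CPM in Tie2Cre. The mural sum holds a large share of Abcc9 (median 25.4 CPM), so the single markers were read too. In TCRKO against WT, 7 of the 9 mural markers tested had a lower estimate, with a median log2 change of -2.06, and 4 of the 8 fibroblast markers (-0.27). In Tie2Cre_H2Abf against Tie2Cre, 6 of 9 mural markers (-0.60) and 5 of 8 fibroblast markers (-1.09) had a lower estimate. By edgeR 0 of these markers passed.
Venous endothelial markers, 5 genes such as Vwf and Selp, summed to 141 to 211 CPM in TCRKO and 247 to 1252 CPM in WT, so their groups were separate like those of Fbln2 and Fbn1. In Tie2Cre_H2Abf, where the same genes were low, that sum was 563 to 1023 CPM, against 544 to 865 CPM in Tie2Cre. Vwf, at a median of 394 CPM, makes up much of this sum. By single markers the median log2 change was -2.005 in TCRKO against WT, with 4 of 5 lower, and -1.005 in Tie2Cre_H2Abf against Tie2Cre, with 3 of 5 lower. Arterial markers summed to 129 to 259 CPM in TCRKO and 137 to 443 CPM in WT. They summed to 338 to 399 CPM in Tie2Cre_H2Abf, above the 189 to 296 CPM of Tie2Cre. By single arterial markers 7 of 7 were lower in TCRKO against WT (median -0.38), and 3 of 7 in Tie2Cre_H2Abf against Tie2Cre (0.32). Of 6 lymphatic markers, 4 (-0.81) and 3 (-0.08) were lower in the same comparisons. Macrophage markers, whose cells can also make fibronectin, summed to 71.5 CPM in Tie2Cre_H2Abf_9576, the library with the highest Fn1, to 382, 173 and 72.8 CPM in the other 3 and to 157 to 226 CPM in Tie2Cre. The part of these cells in the results was not tested. In bulk samples, fewer cells of a type and less RNA per cell cannot be told apart.

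The genes with the most similar levels to each chosen gene were ranked by Spearman correlation over the 20 libraries among 4200 genes with a mean of at least 10 CPM, as a description without a test, since libraries share hosts and depth. For Fbln2 they were Il6st, the gp130 receptor chain of interleukin-6 signalling (0.93), Etl4 (0.85), Fbn1 (0.83) and Tgfbr3, the TGF-beta co-receptor betaglycan (0.82). Eln came at rank 8 (0.79), Fbln5 at rank 14 (0.73), Ltbp4 at rank 107 (0.55) and Fn1 at rank 3022 (-0.14). For Fbln5 they were Fabp4, a fatty acid binding protein of capillaries (0.85), Fry (0.84), Tgfbr3 (0.80) and Abcg2, a membrane transporter (0.79), with Fn1 at rank 3983 (-0.46). For Fbn1 they were Fbln2 (0.83), Etl4 (0.80), Il6st (0.76) and Als2cl (0.73), with Eln at rank 11 (0.66).
Il6st and Tgfbr3 can be read by host beside Fbln2. The mean of Il6st was 365 CPM in WT, 586 in Tie2Cre, 370.4 in CD4KO, 104 in TCRKO and 214 in Tie2Cre_H2Abf, and that of Tgfbr3 was 74.9, 121, 63.4, 38.6 and 35.1 CPM in the same order.

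The other genes of the pathway were read from a list of 43: fibulin relatives, microfibril-associated and EMILIN family genes, latent TGF-beta binding proteins and TGF-beta ligands, cross-linking enzymes, ADAMTS relatives, matrix partners and integrin receptors. An ID was found for 42 and 37 passed the filter. In each of the 7 planned comparisons and the added difference 0 of the 37 passed the adjusted threshold by edgeR. DESeq2 called 1 in CD4KO against WT (Loxl2), 1 in TCRKO against WT and in any difference (Bgn), and 1 in the added difference (Adamtsl5), and limma-voom called 1 for CD4 status (Vcan) and 1 for any difference (Bgn). With no filter edgeR called 5 for any difference (Adamtsl5, Bgn, Hmcn1, Loxl2 and Vcan) and Loxl2 in CD4KO against WT and in the added difference. Bgn was also called for any difference with the filter of 5 CPM in 10 libraries and without the satellite-rich libraries. At an unadjusted p under 0.05 there were 7 in TCRKO against WT, 10 in Tie2Cre_H2Abf against Tie2Cre, 1 in CD4KO against WT, 3 in the libraries labelled CD8KO, 6 in Tie2Cre against WT, 4 for CD4 status, 8 for any difference and 6 for the added difference. Over all 14875 genes there were 1286, 1271, 1277, 1568, 1019, 1081, 1389 and 1011 in the same order. Median log2 changes of the list were -0.28 in TCRKO (-0.20 over all genes), 0.02 in Tie2Cre_H2Abf (-0.24), 0.15 in CD4KO (-0.08), -0.28 in Tie2Cre (0.02) and 0.06 in the libraries labelled CD8KO (-0.18). The genes named next are some of those with the smallest p in these comparisons and others added after their values were seen, all given as values.

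Hmcn1, hemicentin-1, a giant fibulin relative of basement membranes, had 0, 0 and 4 counts in TCRKO and 0, 4, 4 and 0 counts in Tie2Cre_H2Abf. In WT it had 0, 88, 6 and 61 counts and in Tie2Cre 17, 97 and 67. Its fitted log2 changes were -5.06 ± 1.72 in TCRKO against WT (edgeR adjusted p = 0.491) and -4.64 ± 1.498 in Tie2Cre_H2Abf against Tie2Cre (adjusted p = 0.576). The WT library with 0 counts, WT_9748, was at the level of the low hosts.

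Bgn, biglycan, a small proteoglycan that binds elastin and microfibrils, stood at 46.3, 23.0 and 13.4 CPM in TCRKO and at 49.7, 150, 27.1 and 213 CPM in WT (log2 change -1.996 ± 0.54, adjusted p = 0.277). In Tie2Cre_H2Abf it had 64.4, 137, 119 and 81.9 CPM, below the 266, 284 and 199 CPM of Tie2Cre. For any difference among hosts its adjusted p was 0.156. For CD4 status its log2 change was -1.10 ± 0.39 (adjusted p = 0.479).
Vcan, versican, a large proteoglycan bound by fibulins and fibrillin-1, had 7.14, 17.1 and 0.909 CPM in TCRKO against 23.0, 40.8, 18.1 and 31.2 CPM in WT, with no overlap (-1.74 ± 0.75, adjusted p = 0.559). Tie2Cre_H2Abf had 7.79, 2.20, 15.1 and 9.26 CPM, and Tie2Cre had 5.29, 57.2 and 30.1 CPM, which overlapped through Tie2Cre_9501 (-1.85 ± 0.71, adjusted p = 0.576).

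Among receptors, Itgb3, the beta-3 integrin chain that binds fibronectin and fibrillin-1 in pair with alpha-v, stood at 268, 194, 125 and 308 CPM in Tie2Cre_H2Abf and at 87.3, 70.4 and 108 CPM in Tie2Cre. The groups were separate, as they were for Fn1, and the log2 change was 1.34 ± 0.49 (adjusted p = 0.576). In TCRKO it had 113, 188 and 157 CPM, within the WT range of 40.2 to 255 CPM. Itga5, the fibronectin receptor chain, had means of 266 ± 44.5 CPM in Tie2Cre_H2Abf (SD, n = 4) and 223 ± 52.4 CPM in Tie2Cre (SD, n = 3).

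The cross-linking enzymes were read last. Lox had a mean of 0.646 CPM over the 20 libraries and Loxl1 0.0598 CPM, so the lysyl oxidases best known for elastin cross-linking were near the lower limit. Loxl2, which cross-links basement membrane collagen IV, had 4 counts in all of WT and 406 in CD4KO, 289 of them in CD4KO_9768 (6.02 ± 1.60, adjusted p = 0.573). Loxl4 stood at 1.89, 12.7 and 1.01 CPM in Tie2Cre and 30.0, 27.8, 26.3 and 11.4 CPM in WT, overlapping through WT_9772 (-2.16 ± 0.81, adjusted p = 0.664). Tgm2, a transglutaminase that cross-links fibronectin and fibrillin, was the most abundant of the enzymes, at 258 CPM.

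Hspg2 and Mmrn2, abundant matrix genes, did not pass either. Hspg2, perlecan, a basement membrane proteoglycan that anchors microfibrils, stood at 3462, 2580.3, 3496 and 3462 CPM in Tie2Cre_H2Abf, above the 1114, 2331 and 1353 CPM of Tie2Cre (1.02 ± 0.41, adjusted p = 0.576). In TCRKO, at 1874 ± 514 CPM (SD, n = 3), it lay inside the WT range of 782 to 3423 CPM (-0.22 ± 0.41, adjusted p = 0.907). Mmrn2, the endothelial EMILIN family member, stood at 132 ± 30.7 CPM in WT (SD, n = 4), 94.1 ± 5.85 CPM in TCRKO (SD, n = 3), 132 ± 34.3 CPM in Tie2Cre_H2Abf (SD, n = 4) and 104 ± 25.6 CPM in Tie2Cre (SD, n = 3). Its log2 change was -0.49 ± 0.34 in TCRKO against WT (adjusted p = 0.689) and 0.33 ± 0.34 in Tie2Cre_H2Abf against Tie2Cre (adjusted p = 0.807).

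**Figure D5:**
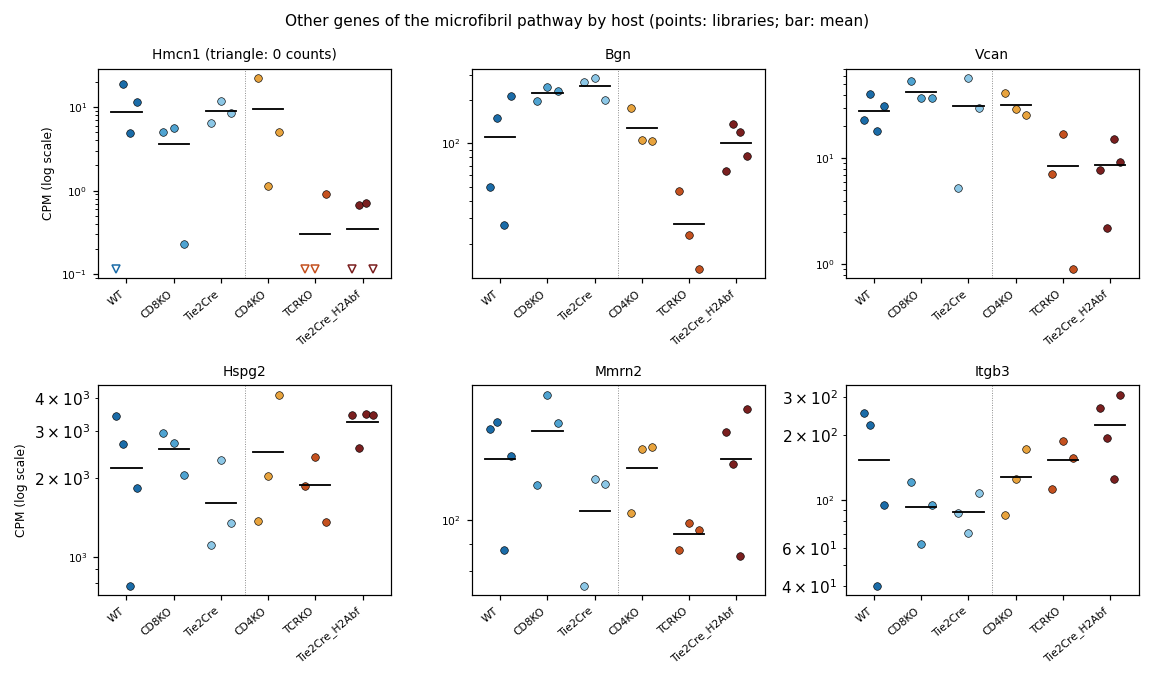
CPM (vertical axes, log scale) of 6 other genes of the pathway in each library (points) by host, with the host mean as a bar and triangles for libraries with 0 counts. Hmcn1, Bgn and Vcan lie lowest in TCRKO or Tie2Cre_H2Abf, Itgb3 and Hspg2 lie higher in Tie2Cre_H2Abf than in Tie2Cre, and Mmrn2 overlaps between those hosts.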

How the data were processed

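The authors deposited 20 tables, 1 a library, of expected counts, TPM values and effective lengths per gene ID. RSEM 1.2.28, bcl2fastq 2.17, STAR (no version is named) and DESeq2, on GRCm38, are named in the submitters' processing notes. The expected counts are estimated counts deposited by the authors, not normalized. Of these 4.45% were not whole, and all were rounded. The deposited TPM values were used only to rank the genes, as an alternative, and to compare Fbln2, Fbn1, Emilin1 and Fn1 between some of the hosts. The deposited effective length, another RSEM quantity, gave CPM per kb. The deposited posterior SD of the counts, a score of RSEM, reached 7.61% of the count for Ltbp4 and at most 0.557% for the other members. The Nextera XT kit named in the labels' protocols does not mark strand, and MATQ amplification keeps no molecule counts.

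The test was edgeR 4.0.16 quasi-likelihood (R 4.3.3) with robust estimation, TMM factors (0.523 to 3.69) and filterByExpr, which kept 14875 genes. The model for CD4 status had 2 groups, all others had 6 with a shared spread (biological coefficient of variation 1.08 and 0.995). P-values were adjusted by Benjamini-Hochberg over all kept genes (threshold 0.05). Standard errors come from the F statistic. The scripts were tested on simulated data.

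The members and lists were chosen with earlier results of these data known. All 10 members are named. From the pathway list, genes past the threshold, or else the 4 of lowest p among those averaging 1 CPM or more, are named in part, along with others (Itga5, Lox, Loxl1, Tgm2, Hspg2, Mmrn2) added after their values were seen. No fitted change is given where a group held 3 counts or fewer (Adamtsl5). Alternatives were RLE factors, DESeq2 1.42.0, limma-voom (limma 3.58.1), other filters, fewer libraries and Pecam1 as a reference.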

Additional observations from a re-analysis of the deposited data

Results flagged for a closer look

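In groups of 4 or 10 libraries, 11 levels stood apart from the rest of their group by Dixon's test, in 40 groups looked at. Chance flags about 1 in 20 groups, and groups share libraries. Of these, 2 came from CD4KO_9770 among the 10 deficient libraries, at 402 CPM of Fbln2 (next 212 CPM) and 46.5 CPM of Fbn1 (next 17.5 CPM). Both genes were chosen for low values in some deficient hosts, so a mark in this pool is a description only. Both levels lay inside the range of the competent libraries (136 to 630 CPM and 7.43 to 51.7 CPM). The lowest CD4KO library, CD4KO_9768, had 127 CPM of Fbln2 and 5.90 CPM of Fbn1, the latter inside the range of Tie2Cre_H2Abf. Tie2Cre_H2Abf_9576 had the highest Fn1 of the deficient libraries at 2051 CPM, from 11583 counts (next 975 CPM). Among the 4 Tie2Cre_H2Abf libraries, Fbln5 was highest in Tie2Cre_H2Abf_9583 at 30.3 CPM (next 16.1 CPM), and Emilin1 in Tie2Cre_H2Abf_9589 at 5.21 CPM (next 4.09 CPM). Emilin1 was also high in TCRKO_9766, at 11.6 CPM from 98 counts.

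The others rest on few counts. Fbln1 stood at 4.997 CPM in Tie2Cre_9502 (41 counts) among the competent libraries, against 0.126 CPM in the next, and at 0.437 CPM in CD4KO_9768 (2 counts) among the deficient ones. Mfap2 and Mfap5 stood at 0.177 CPM in Tie2Cre_H2Abf_9576 (1 count each), Mfap2 both within its host and within the deficient libraries. A single count next to libraries at 0 gives such a mark by construction.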

How the results depend on the processing

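No paired analysis was possible because each library number is used once, so the hosts compared share no number. The count of tested members past the threshold (the 3 chosen genes left out) was 0 in each comparison, and 0 whenever a library was left out. It became 1 for CD4 status with limma-voom (Eln), for TCRKO against WT with DESeq2 (Eln), and for Tie2Cre_H2Abf against Tie2Cre with DESeq2, no filter or a filter of 5 CPM in 10 libraries (Fn1). It became 1 for the added difference with DESeq2 or no filter (Fn1). For any difference it became 2 with DESeq2 or no filter (Fn1 and Eln) and 1 with the stricter filter (Fn1). In the other 53 alternatives that left out no single library it stayed 0. The cause was not tested.

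Directions turned in the cases given next. In CD4KO against WT, Fbln2 (0.02) became -0.11 with RLE factors, -0.10 with the stricter filter, -0.11 with limma-voom and with DESeq2, -0.19 without the satellite-rich libraries, -0.013 with protein-coding genes only, -0.052 with only those hosts and -0.013 relative to Pecam1, and limma-voom turned Fbn1 to 0.24 and Eln (1.09) to -0.12. TCRKO against WT, Emilin1 became -0.35 with limma-voom and -0.11 without the satellite-rich libraries. For the libraries labelled CD8KO, Fbn1 became 0.15 with no filter, 0.55 with limma-voom and 0.034 without the satellite-rich libraries. Without these libraries Fn1 became -0.0095 and Eln -0.084, and relative to Pecam1 Fbln2 became -0.051 and Fn1 -0.014. In Tie2Cre against WT, Eln became -0.25 without the satellite-rich libraries. For the added difference, Ltbp4 became -0.018 with limma-voom and Eln -0.053 with the stricter filter.

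Leaving out single libraries turned a sign in these ranges. In CD4KO against WT they were -0.52 to 0.35 for Fbln2 and -1.26 to 0.20 for Fbn1. In TCRKO against WT Emilin1 ran from -1.34 to 0.63. In the libraries labelled CD8KO they were -0.018 to 0.53 (Fbln2), -0.41 to 0.24 (Fbn1), -0.057 to 0.47 (Fn1) and -0.12 to 0.73 (Eln). In Tie2Cre against WT they were -0.019 to 0.67 (Fbn1) and -0.29 to 0.55 (Eln). For the added difference they were -0.37 to 0.66 (Ltbp4) and -0.38 to 1.94 (Eln).

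Fbln2, Fbln5 and Fbn1 stayed lower in TCRKO and in Tie2Cre_H2Abf in every setting run. They were chosen for low values in these same libraries, so this is a description and no further support. Relative to Pecam1, Fbln5 in TCRKO was -0.81 and Ltbp4 -0.02, and for CD4 status Fbn1 was -2.33 and Eln -1.81. Over all genes, edgeR calls ranged with the filter from 4 to 31 (TCRKO), 3 to 10 (Tie2Cre_H2Abf) and 9 to 672 (any difference), DESeq2 gave 177, 57 and 271, and single libraries moved the first count between 0 and 18 and the last between 1 and 18. With no filter, CD4KO gave 10 calls, CD8KO 12 and the added difference 18. Depth limits Fbn1 in TCRKO, with 30 counts in all, and Fbln1, Mfap2 and Mfap5.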
